A study of Mus musculus with 2 samples.

Results

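Imprinted genes were measured in single cells of the mouse fetal ovary, in germ cells and in the somatic cells around them. The members were 33 named imprinted genes, looked up by symbol in the count matrices, and 32 of them were found among the 27998 genes measured. Rian is not analysed here. Of the 32, 13 are maternally expressed genes, read from the copy inherited from the mother, and 19 are paternally expressed. Ovaries at E15.5, counted in embryonic days, were pooled by genotype and captured as 1 library each, so no comparison here has a replicate. The knockout (KO) library came from 2 embryos homozygous for a deletion of the glucocorticoid receptor (GR), a hormone-bound transcription factor encoded by Nr3c1, and the wild-type (WT) library from 4 embryos. Exon 3 of a floxed allele (Nr3c1tm1.1Jda) had been removed with a β-actin Cre a generation earlier, so every cell of the KO embryos carried the deletion. Embryos of both genotypes carried the Tg(Pou5f1-EGFP)2Mnn (OCT4-GFP) transgene, by which germ cells were sorted before they were mixed with sorted somatic cells at 60 to 40.

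Imprinted genes carry DNA methylation that differs between the maternal and the paternal copy and that decides which copy is read. Somatic cells keep these marks for life. Germ cells erase them while they colonise the gonad, and female germ cells set maternal marks again only in the growing oocyte after birth, so that both copies are without a mark during fetal meiosis. Imprinted genes lie in domains in which a control region, often with a long non-coding RNA, governs several neighbours. Many are growth regulators of the embryo and placenta, and some are imprinted only in certain tissues. Transcripts were counted by unique molecular identifier (UMI) and not by allele, so none of the values below shows which parental copy was read.

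After the limits of the study, 9045 WT and 15502 KO cells were kept, with medians of 15685 and 10194.5 UMIs per cell, and 27 of the kept barcodes occurred in both libraries. Germ-like cells (6793 WT, 10206 KO) were compared with the sum of 3 gonadal somatic classes, granulosa-like (938 and 2031 cells), theca-like (839 and 1941) and epithelia-like (399 and 1082). Classes were named from marker genes, with the members left out of the clustering. At 2-fold, all 8 germ markers, 6 of 7 granulosa, 7 of 7 theca and 5 of 6 epithelial markers stood out in their class. Levels are counts per 1000000 UMIs of a class (CPM), and the intervals in brackets are exact 95% intervals that cover counting error only. Nr3c1 itself was counted at 71.8 CPM in WT and 11.6 CPM in KO germ-like cells and was lower in KO in each of the 4 classes, although the lost exon does not remove the 3′ end that is counted.

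Transcripts of one class also reached droplets of the other. The 18 of 20 gonadal somatic markers with enough UMIs stood in germ-like cells at a median of 1.05% of their somatic level in WT (from 0.364% to 13.6%) and 1.61% in KO (from 1.06% to 9.89%). The 8 germ markers stood in somatic-like cells at a median of 12.3% of their germ level in WT and 17.2% in KO. Between 93.7% and 95.3% of the germ-marker UMIs in each somatic class lay in the cells with more than 3 such UMIs, and 631 of 938 WT granulosa-like cells held 3 or fewer. These levels are the background against which a low value of a member is read. Of the members with at least 100 somatic UMIs, 0 of 26 in WT and 1 of 27 in KO had a germ level at or below the median marker, but 14 and 12 were at or below the highest marker, Lrrn4.

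Several members are also hosts of microRNAs, short RNAs that pair with messages through their seed (bases 2 to 8). RefSeq's mouse table (GRCm38.p6) places mature microRNAs within the spans of 6 of the 32 members, most of them in Mirg, which spans 14 microRNA genes. The mature sequences of the H19 and Mest hairpins are shown because their hosts had some of the largest gaps between germ-like and somatic-like cells. Capitals mark the seed. The miR-675 hairpin lies in an exon of H19 and the miR-335 hairpin in an intron of Mest. No seed is shared among the 4, and the libraries did not measure mature microRNAs.

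miR-675-5p: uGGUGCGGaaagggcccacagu
miR-675-3p: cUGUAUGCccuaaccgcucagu
miR-335-5p: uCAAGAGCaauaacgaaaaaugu
miR-335-3p: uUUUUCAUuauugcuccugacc

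Promoters are shown for Phlda2 and Slc22a18, neighbours that were both highest in the earliest germ-like cells, and for Igf2r, which ran the other way. The windows below run from 250 bases before to 50 bases after the start, with each CG in capitals (the letters CG, which read the same on both strands and are where methylation is set). The Phlda2 window, chr7:143502475-143502774 on the minus strand, held 26 CG, a number that 16.9% of all 32851 windows of this length reached. The Slc22a18 window, chr7:143473539-143473838 on the plus strand, held 2, which 85.9% reached. The Igf2r window, chr17:12769657-12769956 on the minus strand, held 34, which 7.73% reached. The neighbours Phlda2 and Slc22a18 thus had windows of unlike CG content. Each count is a description of these letters only.

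Phlda2: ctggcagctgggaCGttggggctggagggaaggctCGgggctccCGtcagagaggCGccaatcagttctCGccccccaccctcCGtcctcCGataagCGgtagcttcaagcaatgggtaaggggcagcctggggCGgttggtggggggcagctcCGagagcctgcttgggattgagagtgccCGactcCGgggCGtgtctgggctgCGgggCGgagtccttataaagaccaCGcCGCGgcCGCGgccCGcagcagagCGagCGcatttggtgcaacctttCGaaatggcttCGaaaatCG
Slc22a18: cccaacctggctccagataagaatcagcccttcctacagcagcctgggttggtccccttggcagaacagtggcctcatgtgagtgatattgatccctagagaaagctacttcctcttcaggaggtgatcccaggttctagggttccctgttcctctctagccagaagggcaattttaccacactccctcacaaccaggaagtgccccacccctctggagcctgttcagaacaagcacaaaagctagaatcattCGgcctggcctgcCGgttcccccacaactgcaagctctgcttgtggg
Igf2r: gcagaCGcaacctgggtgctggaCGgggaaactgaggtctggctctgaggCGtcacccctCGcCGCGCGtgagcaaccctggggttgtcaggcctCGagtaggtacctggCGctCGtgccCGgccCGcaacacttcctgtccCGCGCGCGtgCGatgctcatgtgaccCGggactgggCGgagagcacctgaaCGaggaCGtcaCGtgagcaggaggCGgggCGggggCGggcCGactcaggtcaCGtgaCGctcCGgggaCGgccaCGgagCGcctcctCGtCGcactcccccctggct

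Most imprinted genes were far lower in germ-like than in somatic-like cells, and few were over 2-fold higher. Of the 29 members with at least 100 UMIs over both sides in WT, 20 were at least 2-fold lower in germ-like cells and 4 at least 2-fold higher. Of these 4, all maternally expressed, Ascl2, Slc22a18 and Phlda2 held only 8, 42 and 67 somatic-like UMIs. They thus passed the minimum only through the germ-like cells where they were high, so no trait of the parental class is read from them. Among all 13818 genes tested the same way, 31.1% were lower and 26.5% were higher. In KO, 21 of 30 members were lower, against 32.9% of all genes, and 4 were higher, against 22.8%. The median log2 ratio of germ-like over somatic-like cells was -2.60 over the tested members in WT, and 0.02 over all tested genes. In KO it was -2.97, and -0.07 over all genes.

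The parental groups differed in their spread. All 16 paternally expressed members tested in WT had a lower level in germ-like cells, with a median log2 ratio of -4.04 and 13 past 2-fold. In KO all 17 were lower, with a median of -3.92 and 14 past 2-fold. The 13 maternally expressed members ran from -5.64 to 2.81 in WT, with 7 lower and 4 higher past 2-fold, and a median of -1.22. In KO their median was -1.20, again with 7 lower and 4 higher. The difference between the parental groups was not tested. Some imprinted genes are imprinted only in certain tissues, so the parental class of those higher need not hold in these cells.

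**Figure D1:**
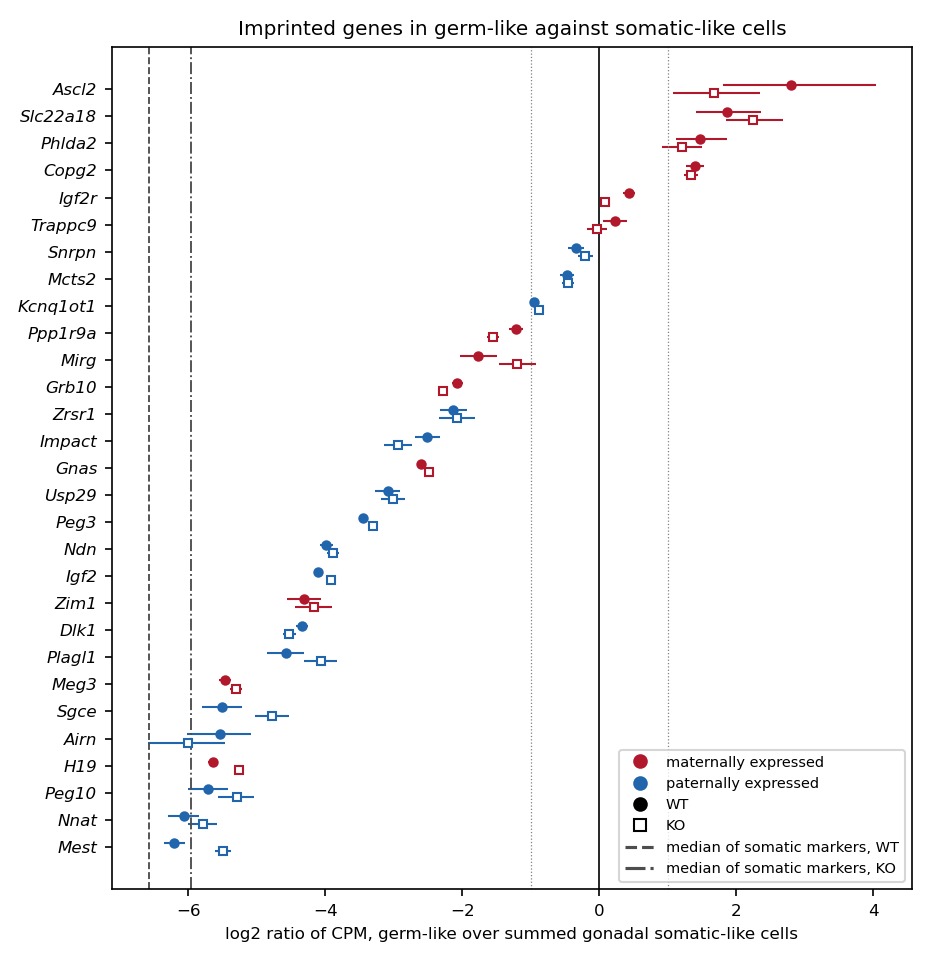
Log2 ratio of CPM in germ-like cells over the 3 gonadal somatic classes summed, for the 29 members with at least 100 UMIs in both libraries (filled circles WT, open squares KO, bars 95% counting intervals, dotted lines 2-fold). Dashed vertical lines mark the median of the gonadal somatic markers, and members run from -6.20 for Mest to 2.81 for Ascl2 in WT.

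In the Igf2-H19 domain both genes were low in germ-like cells. H19 is a long non-coding RNA at chr7:142575529-142578143 on the minus strand, read from the maternal copy in opposition to Igf2. In WT its level was 12.6 CPM in germ-like cells beside 627 CPM in somatic-like cells, and in KO 16.6 beside 636 CPM. The log2 ratios were -5.64 (-5.71 to -5.56) in WT and -5.26 (-5.32 to -5.19) in KO. A UMI of H19 was found in 17.4% of WT germ-like cells against 96.9% of somatic-like cells, at medians of 17101 and 12403.5 UMIs per cell, and in 3.9% against 75% after each cell was thinned to 3000 UMIs.

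Igf2, the fetal growth factor of the same domain, had 15.9 CPM in germ-like and 272 CPM in somatic-like cells of WT, and 16.9 and 256 CPM in KO. Its germ level was 5.84% of the somatic one in WT and 6.60% in KO, while that of H19 was 2.01% and 2.62%. Both shares stood above the marker medians of their library. In germ-like cells without a UMI of a gonadal somatic marker, H19 was at 10.9 CPM in WT and 13.2 CPM in KO, against 14.2 and 20.8 CPM in germ-like cells with one.

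The Dlk1-Meg3 domain showed the same direction in both of its parental classes. Meg3, a maternally expressed long non-coding RNA at chr12:109541001-109571726, had 9.22 CPM in germ-like and 407 CPM in somatic-like cells of WT, and 8.94 and 353 CPM in KO. Dlk1, a paternally expressed transmembrane ligand related to Notch ligands, had 11.7 and 238 CPM in WT, and 8.06 and 185 CPM in KO. Mirg, the non-coding RNA that hosts a microRNA cluster, was scarce, with 2.10 and 7.14 CPM in WT and 2.04 and 4.68 CPM in KO. Meg3 stood at 5.77 CPM in WT germ-like cells without a somatic marker UMI and at 12.4 CPM in those with one.

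Mest, Peg10, Sgce and Nnat were among the paternally expressed genes nearest to the background. Mest, a hydrolase-like protein of mesoderm, had 3.21 CPM in germ-like and 236 CPM in somatic-like cells of WT, and 5.28 and 238 CPM in KO. Nnat, a small membrane protein, had 1.40 and 93.7 CPM in WT, and 1.63 and 90.4 CPM in KO. Peg10, a gene derived from a retrotransposon, had 0.879 and 45.8 CPM in WT, and Sgce, its neighbour, a sarcoglycan of the cell surface, had 0.888 and 40.3 CPM. The germ levels of these 4 genes were between 1.36% and 2.2% of the somatic ones in WT and between 1.81% and 3.65% in KO, beside marker medians of 1.05% and 1.61%.

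The Peg3 domain and the Snrpn domain were lower by smaller factors. Peg3, a paternally expressed zinc finger protein, kept 74.5 CPM in germ-like cells beside 817 CPM in somatic-like cells of WT, and 73.2 beside 720.2 CPM in KO. Its log2 ratios were -3.45 (-3.49 to -3.42) and -3.30 (-3.33 to -3.26). Usp29, a ubiquitin protease read from the same start region, had ratios of -3.09 and -3.01, and Zim1, the maternally expressed zinc finger gene beside them, -4.30 and -4.16.

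Ndn, which encodes necdin, a growth suppressor of the MAGE family, had 10.1 CPM in germ-like and 159.7 CPM in somatic-like cells of WT, and 9.68 and 143 CPM in KO. Magel2, its neighbour and relative, held 13 UMIs in WT and 14 in KO germ-like cells. Snrpn, a core protein of the spliceosome, was at 18.7 beside 23.6 CPM in WT and at 18.2 beside 21.0 CPM in KO, so this gene did not share the gap of its domain. Snurf lies on the same strand within the span of Snrpn, and 0 UMIs were assigned to it in either library. Reads of the 2 genes cannot be told apart here.

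Gnas, which encodes the stimulatory G protein subunit that activates adenylyl cyclase, was the most abundant member. It had 184 CPM in germ-like and 1118 CPM in somatic-like cells of WT, and 179 and 1005 CPM in KO, with log2 ratios of -2.60 and -2.49. Its locus makes transcripts of either parental class that share their last exons, so the count joins them. Grb10, an adaptor that restrains insulin and growth factor receptors, had log2 ratios of -2.07 and -2.28. Impact, a translational regulator, had ratios of -2.51 and -2.93. Plagl1, a zinc finger factor of the embryonic growth network, had -4.58 and -4.07. Zrsr1, a splicing factor described further on, had -2.13 and -2.08. Ppp1r9a, neurabin, an actin-binding scaffold for protein phosphatase 1, was lower by the smallest factor among those past 2-fold in WT, with a log2 ratio of -1.22 there and -1.56 in KO.

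Airn and Igf2r, the antisense pair of 1 domain, parted. Airn is a paternally expressed antisense RNA that crosses the Igf2r start on the other strand and silences that copy in somatic cells. It held 44 UMIs in all WT germ-like cells and 29 in KO, or 0.365 and 0.238 CPM, against 16.9 and 15.2 CPM in somatic-like cells. In KO its germ level, 1.57% of the somatic one, was below the marker median of 1.61%. Igf2r, the receptor that clears Igf2, had 60.7 CPM in germ-like and 45.0 CPM in somatic-like cells of WT, and 49.1 and 46.5 CPM in KO. Whether reads were assigned by strand is not given in the sources used here, so reads shared by an antisense pair cannot be told apart. Of the 32 members, 15 overlap another gene of the files, 3 of them on the same strand.

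Copg2, Phlda2, Slc22a18 and Ascl2 were the members past 2-fold in favour of germ-like cells in both libraries. Copg2, a coat subunit of vesicles between the Golgi and the endoplasmic reticulum, had 47.9 CPM in germ-like and 18.2 CPM in somatic-like cells of WT, and 49.7 and 19.7 CPM in KO. It overlaps Mest on the opposite strand, yet its levels ran the other way from those of Mest. Its log2 ratios were 1.39 (1.27 to 1.52) and 1.34 (1.24 to 1.44).

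The other 3 lie in the Kcnq1 domain of chromosome 7. Phlda2, a placental growth restrictor with a pleckstrin homology domain, had 6.25 CPM in germ-like and 2.25 CPM in somatic-like cells of WT, and 5.52 and 2.39 CPM in KO. Slc22a18, a membrane transporter, had 5.15 and 1.41 CPM in WT, and 5.21 and 1.09 CPM in KO. Ascl2, a basic helix-loop-helix factor of the trophoblast, was scarce, with 226 UMIs in WT germ-like cells beside 8 in somatic-like cells, and 201 beside 25 in KO. Germ markers reached somatic-like cells at medians of 12.3% and 17.2% of their germ level. Without germ-like cells holding a gonadal somatic marker UMI and somatic-like cells holding more than 3 germ marker UMIs, the log2 ratio of Slc22a18 was 2.56 in both libraries, beside 1.87 in WT and 2.25 in KO with all cells. That of Ascl2 was 3.21 in WT and 2.36 in KO, beside 2.81 and 1.68. Thinned to 3000 UMIs, the KO ratio of Ascl2 was 3.27. The ratio of Phlda2 without those cells was 1.082 in WT and 0.84 in KO, beside 1.48 and 1.21.

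The excess of Phlda2 rested on few cells. With common limits on cells, which cap UMIs at 30000, its WT log2 ratio was 0.75, and as a mean over cells its KO ratio was 0.73, both under 2-fold. Thinning left a KO ratio of 0.74. Kcnq1ot1, the paternally expressed antisense RNA that silences this domain in somatic cells, was lower in germ-like cells by just under 2-fold, with 177 beside 344 CPM in WT and 160.3 beside 294 CPM in KO. Trappc9, a subunit of a vesicle tethering complex, and Mcts2, a retrogene in an intron of H13 related to translation re-initiation factors, also differed by less than 2-fold in both libraries. Nap1l5, a relative of nucleosome assembly proteins, did not reach 100 UMIs in either library.

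Germ-like cells were split into 4 groups in the order of the summed levels of premeiotic and meiotic entry markers. The 5 entry markers, which include Stra8, the retinoic acid target that starts meiosis, summed to 2219 CPM in group 1 of WT, 1687 CPM in group 2, 632 CPM in group 3 and 359.5 CPM in group 4. The 8 late markers ran the other way, from 413 CPM in group 1 to 1763 CPM in group 4. The 7 recombination markers were highest in group 3, at 1132 CPM in WT, and stood at 740 CPM in group 4. At 2-fold over the other germ-like cells, 4 of 8 premeiotic and 2 of 5 entry markers stood out in their group. None of the 7 recombination and 8 late markers did, so groups 3 and 4 are less sharply marked. Groups 1 to 4 held 230, 355, 2814 and 3394 WT cells and 442, 1445, 3944 and 4375 KO cells. Depth was lower in later groups, with medians from 26394 to 14841 UMIs per cell in WT and from 18490 to 9906 in KO.

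Between groups 1 and 4, 10 of 22 members with enough UMIs differed by at least 2-fold in WT, against 31.6% of all genes tested. In KO 8 of 23 did, against 29.7%. After each cell was thinned to 3000 UMIs, by which fewer genes reach 100 UMIs, 6 of 15 members did in WT, against 26.4% of all genes, and 8 of 16 in KO, against 24.9%. Of the 10 in WT, 6 were lower in group 4 (Phlda2, Slc22a18, Snrpn, Igf2, Trappc9 and Kcnq1ot1) and 4 were higher (Grb10, Mirg, Igf2r and Ppp1r9a). Of the 8 in KO, 6 were lower (Phlda2, Slc22a18, Plagl1, Kcnq1ot1, Snrpn and Trappc9) and 2 were higher (Grb10 and Mirg). No paternally expressed member, of 11 with a ratio in WT and 12 in KO, was at least 2-fold higher in group 4. Of all genes with a ratio, 2089 of 11099 were higher in WT and 1619 of 10856 in KO. With so few members, this absence is not read as a trait of the parental class.

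Phlda2 was almost limited to the earliest group. It stood at 107 CPM in group 1 of WT, 2.57 CPM in group 2, 0.713 CPM in group 3 and 0.644 CPM in group 4. In KO the levels were 70.1, 2.03, 0.441 and 0.625 CPM. Group 1 held 87.9% of the germ UMIs of Phlda2 in WT with 3.39% of the germ-like cells, and 86.3% in KO with 4.33%. Even there the cells were unlike, since 38 of 230 WT cells had 5 or more UMIs and held 79.6% of the Phlda2 UMIs of the group, while 117 cells had at least 1. In KO 43 of 442 cells had 5 or more and 174 had at least 1. After each cell was thinned to 3000 UMIs, a Phlda2 UMI was left in 18.7% of the cells of group 1 and 0.236% of those of group 4 in WT, and in 13.3% and 0.229% in KO.

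Slc22a18, next to Phlda2 and on the other strand, was lower in each later group. Its levels were 33.4, 12.8, 3.92 and 2.03 CPM over the groups in WT and 28.8, 8.57, 2.79 and 1.83 CPM in KO. The log2 ratios of group 4 over group 1 were -4.04 (-4.40 to -3.70) in WT and -3.97 (-4.35 to -3.61) in KO. Ascl2 had 4.69 CPM in group 1 and 1.29 CPM in group 4 of WT, and 4.11 and 1.18 CPM in KO, on 29 to 66 UMIs per group. In group 1 Phlda2 was 47.6-fold and Slc22a18 23.8-fold above the somatic-like cells in WT, and 29.3-fold and 26.3-fold in KO.

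Kcnq1ot1 followed another course than the maternally expressed genes of its domain. It stood at 208 CPM in group 1 of WT, 368 CPM in group 2, 229 CPM in group 3 and 91.1 CPM in group 4. In KO the levels were 189, 314, 174 and 68.3 CPM. The peak in group 2 and the low in group 4 were thus seen in both libraries, and group 4 stood 4.04-fold below group 2 in WT and 4.59-fold below it in KO. Snrpn had its highest level in group 1, at 49.9 CPM in WT and 39.4 CPM in KO, and its levels in group 4 were 16.5 CPM in WT and 14.3 CPM in KO. Trappc9 passed from 27.8 to 11.9 CPM between groups 1 and 4 of WT and from 20.5 to 9.94 CPM in KO.

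**Figure D2:**
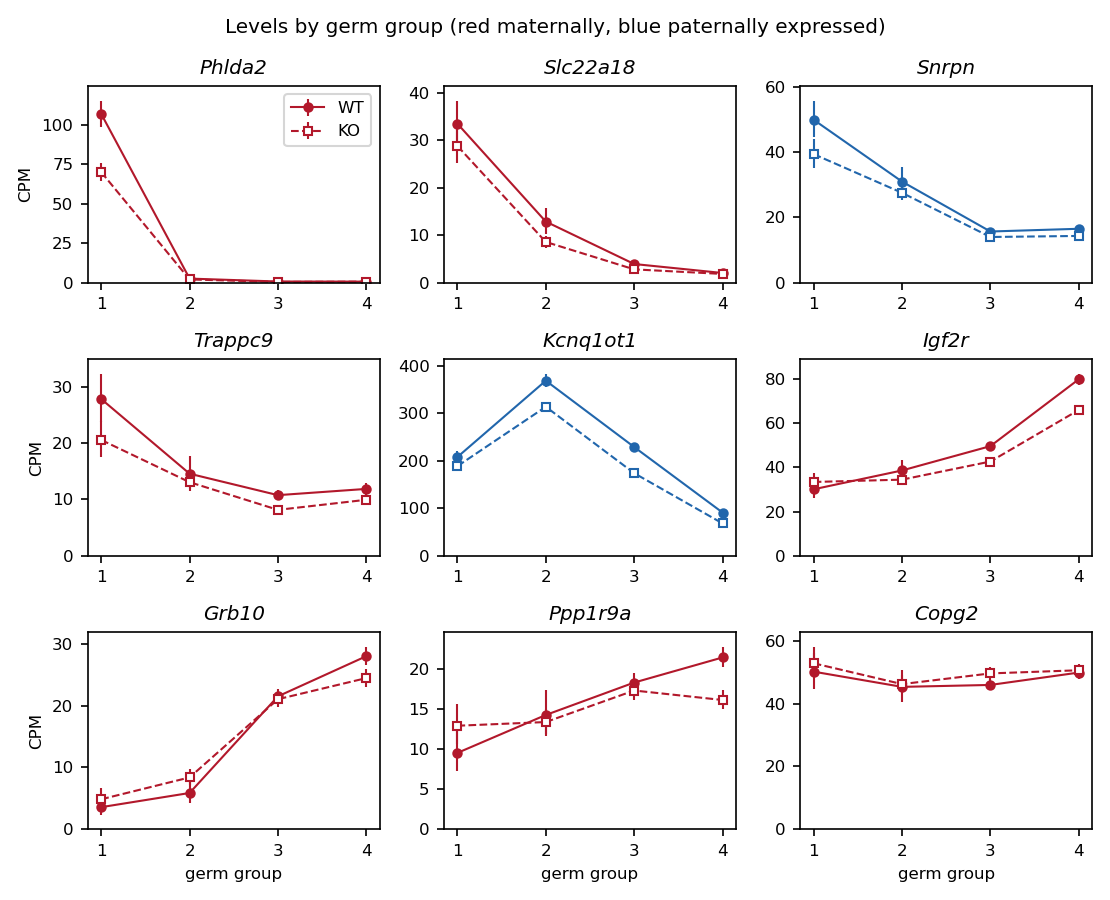
CPM of 9 members in the 4 germ groups, from highest to lowest meiotic entry markers (filled circles and solid lines WT, open squares and dashed lines KO, bars 95% counting intervals, each panel with its own axis from 0). Phlda2 stands at 107 CPM in group 1 and under 3 CPM elsewhere in WT, Kcnq1ot1 peaks in group 2, and Grb10 and Igf2r are highest in group 4.

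Grb10 had the steepest gain that rested on more than a few UMIs. It stood at 3.56, 5.85, 21.5 and 28.03 CPM over the groups in WT and at 4.83, 8.38, 21.1 and 24.5 CPM in KO. Its log2 ratios of group 4 over group 1 were 2.98 (2.37 to 3.66) and 2.34 (1.89 to 2.83). Igf2r stood at 30.1, 38.5, 49.5 and 79.7 CPM in WT and at 33.4, 34.4, 42.6 and 65.8 CPM in KO, where its ratio of 0.98 was just under 2-fold. Airn, the antisense RNA of Igf2r, had 2 UMIs in group 1 and 15 in group 4 of WT, so Airn was at or near 0 at both ends. Ppp1r9a passed from 9.53 to 21.5 CPM in WT, and in KO from 12.9 to 16.1 CPM, which was under 2-fold.

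Mirg was past 2-fold in both libraries on few UMIs, 6 in group 1 and 141 in group 4 of WT and 2 and 118 in KO. Plagl1, past 2-fold in KO, passed from 5.33 to 0.82 CPM between groups 1 and 4 of WT on 33 and 42 UMIs, under the minimum there. Ndn was lowest in group 2 of WT, with 15.2 CPM in group 1, 4.85 CPM in group 2 and 13.6 CPM in group 4. In KO it had 18.5, 6.53 and 12.9 CPM in these groups. Copg2 ran between 45.4 and 50.3 CPM in WT and between 46.3 and 52.9 CPM in KO, and in WT Peg3 ran between 51.1 and 82.7 CPM and Mcts2 between 24.4 and 27.3 CPM. H19 stood at 15.8 CPM in group 1 and 12.2 CPM in group 4 of WT, and at 22.1 and 15.6 CPM in KO.

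Among the somatic classes, most members were within 2-fold between theca-like and granulosa-like cells, and some differed by more. Granulosa cells surround the oocyte, and the theca-like class here also held the perivascular cells. Of 26 members with enough UMIs in each library, 8 differed by at least 2-fold between the classes in WT and 7 in KO, against 20.5% and 20.3% of all genes. Dlk1, Plagl1, Grb10, Meg3, Mirg and Airn were lower in granulosa-like cells in both libraries. Snrpn was higher there in both, and Zrsr1 in WT only.

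Dlk1 had 559 CPM in theca-like, 186 CPM in epithelia-like and 18.2 CPM in granulosa-like cells of WT, and 421, 152 and 16.9 CPM in KO. Meg3, of the same domain, had 750.4, 273 and 219 CPM in the same order in WT, and 669, 248 and 169 CPM in KO. Plagl1 had 66.3, 8.04 and 5.05 CPM in WT and 59.7, 10.1 and 3.77 CPM in KO. For these 3 genes the theca-like level was the highest of the 3 classes in both libraries. Grb10 had 174, 104 and 27.2 CPM in WT and 162, 108 and 25.8 CPM in KO, in the same order again.

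H19 and Ndn stood at near equal levels in the 3 classes. H19 ran from 611 to 666 CPM in WT and from 608 to 670.1 CPM in KO, and Ndn from 150.1 to 168 CPM and from 135 to 147 CPM. Kcnq1ot1 had 435 CPM in granulosa-like and 218 CPM in theca-like cells of WT, and 370.4 and 186 CPM in KO, just under 2-fold in either library. Snrpn had 36.5 and 16.1 CPM in the same classes of WT, and 31.9 and 13.5 CPM in KO. Nnat was highest in epithelia-like cells, at 128 CPM in WT and 130.2 CPM in KO, and Zim1 lowest there, at 9.40 and 10.8 CPM.

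**Figure D3:**
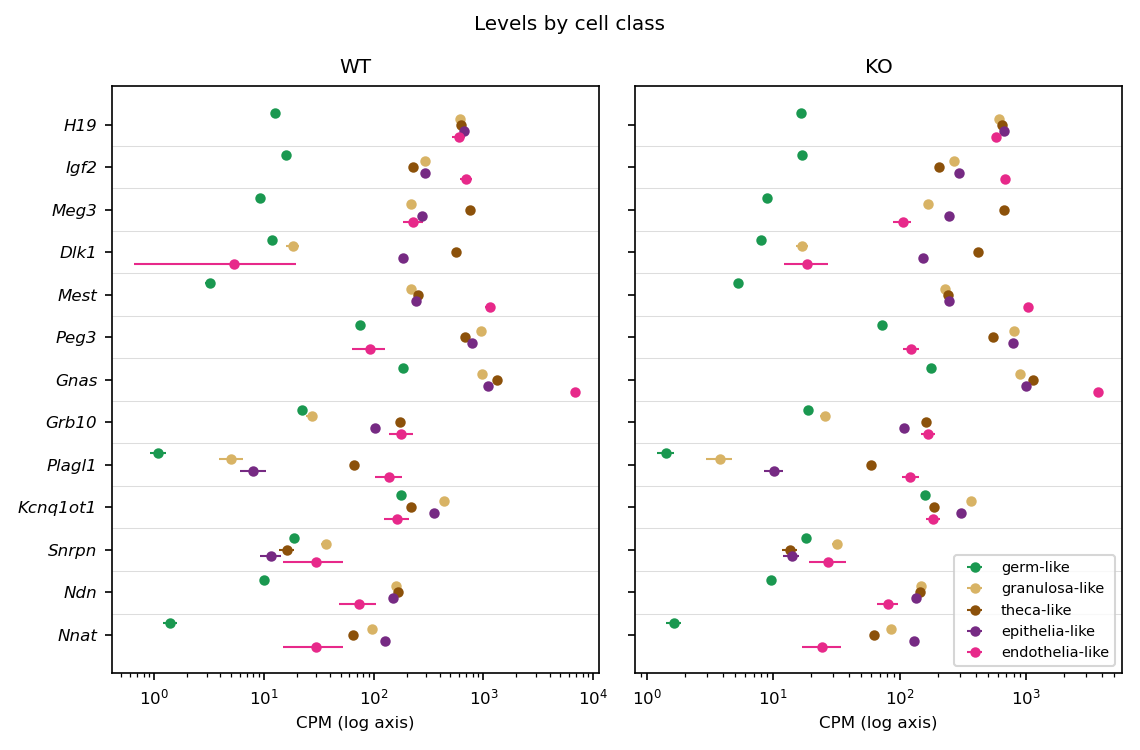
CPM on a log axis of 13 members in germ-like cells and 4 somatic-like classes (left WT, right KO, bars 95% counting intervals). Germ-like cells have the lowest level of H19, Igf2, Meg3, Mest and Nnat in both libraries, and endothelia-like cells the highest level of Gnas, at 6777 CPM in WT and 3742 CPM in KO.

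The endothelia-like cells, 30 in WT and 136 in KO, had levels unlike those of the gonadal somatic classes. Gnas stood at 6777 CPM in WT and 3742 CPM in KO, which was 6.06-fold and 3.72-fold the level of the 3 gonadal classes. Mest stood at 1138 and 1032 CPM, 4.82-fold and 4.33-fold, and Igf2 at 696 and 688 CPM, 2.55-fold and 2.69-fold. No single cell made up more than 9.0% of the summed per-cell levels of these 3 genes in WT. Peg3 was low there, at 91.7 CPM in WT and 124 CPM in KO, and the median endothelia-like cell held 0 UMIs of it.

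Between the libraries, most members were within 1.5-fold in each of the 4 classes. In germ-like cells 3 of 28 members differed by at least 1.5-fold, against 5.46% of all genes. Among granulosa-like cells this held for 2 of 27, against 3.98%. Theca-like cells had 2 of 26, against 4.4%, and epithelia-like cells 1 of 25, against 2.17%. With 1 to 3 members called in a class, no excess over all genes is read from these counts. The median log2 ratio of KO over WT over the tested members was -0.04 in germ-like cells, beside -0.05 over all genes. It was -0.12 beside -0.02 in granulosa-like cells, -0.19 beside 0.01 in theca-like cells, and 0.01 beside 0.03 in epithelia-like cells. Genotype cannot be told apart from embryo pool, sort or capture.

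Zrsr1 was the member that differed in all 4 classes. It is a paternally expressed retrogene for a splicing factor of the minor spliceosome, at chr11:22972005-22976496 on the plus strand, within Commd1 on the minus strand. Germ-like cells had 3.54 CPM in WT and 1.62 CPM in KO, a log2 ratio of -1.13 (-1.38 to -0.88). Granulosa-like cells had 20.8 and 7.17 CPM, a ratio of -1.54 (-1.85 to -1.24). Theca-like cells had 9.78 and 5.09 CPM, a ratio of -0.94 (-1.39 to -0.50). Epithelia-like cells had 13.9 and 8.37 CPM, a ratio of -0.73 (-1.13 to -0.33), which turned to 0.32 once cells were thinned to 3000 UMIs. These epithelia-like levels rested on 102 WT and 112 KO UMIs, of which thinning leaves only a part. The KO level was thus the lower one in each class with all UMIs counted. The ratio was below 0 in each of the 4 germ groups, from -1.23 to -0.88, of which groups 1 and 2 held under 100 UMIs.

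Zrsr1 has a close paralog on the X chromosome, Zrsr2, which was much more abundant and may share reads with it. Zrsr2, looked at after the Zrsr1 values were seen, had 462 CPM in WT and 514 CPM in KO germ-like cells, and its log2 ratios over the 4 classes were 0.15, 0.24, 0.34 and 0.17, all above 0. Commd1, the host gene, had ratios from -0.03 to 0.07. The lower Zrsr1 count thus stood beside a slightly higher count of its paralog and a near equal count of its host.

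Mest and Impact passed 1.5-fold in germ-like cells and in none of the 3 gonadal somatic classes. Mest was at 3.21 CPM in WT and 5.28 CPM in KO germ-like cells, a log2 ratio of 0.72 (0.53 to 0.90), while its ratios in the 3 gonadal somatic classes ran from -0.08 to 0.08. The median somatic marker in germ-like cells moved the same way, from 1.05% to 1.61% of its somatic level. Without germ-like cells that held a somatic marker UMI, the Mest ratio was 0.68. Impact was at 3.35 CPM in WT and 2.16 CPM in KO, a ratio of -0.63 (-0.86 to -0.41), and its somatic ratios ran from -0.36 to -0.05.

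Mirg was lower in KO in granulosa-like cells, at 4.74 CPM in WT and 2.84 CPM in KO, and in theca-like cells, at 11.6 and 7.19 CPM. The log2 ratios were -0.74 (-1.29 to -0.19) and -0.69 (-1.08 to -0.30), on 55 to 114 UMIs per class. Meg3 and Dlk1 of the same domain were within 1.5-fold in each of the 4 classes, with ratios from -0.38 to -0.04 for Meg3 and from -0.54 to -0.11 for Dlk1. In endothelia-like cells, however, Meg3 was at 229 CPM in WT and 106 CPM in KO, a ratio of -1.12 (-1.51 to -0.72), and Gnas had a ratio of -0.86 (-0.93 to -0.79) there. Germ transcripts differed in this class too. The germ marker Sycp1 stood at 48.5 CPM in WT and 681 CPM in KO endothelia-like cells, and Smc1b at 37.8 and 984 CPM. The part of this carry-over in the 2 ratios was not tested.

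Within the germ groups, further members passed 1.5-fold. The share of all genes past 1.5-fold in each group is not given here, so no excess is read from these members. Meg3 was at 8.24 CPM in WT and 18.1 CPM in KO in group 1, a ratio of 1.14 (0.67 to 1.63), opposite in direction to its ratio in endothelia-like cells. Over the KO germ-like cells of all groups, Meg3 was at 5.78 CPM without a somatic marker UMI and at 12.75 CPM with one. Dlk1 was at 9.51 and 6.14 CPM in group 3, a ratio of -0.63 (-0.84 to -0.42), and at 12.96 and 8.02 CPM in group 4, a ratio of -0.69 (-0.88 to -0.51). Slc22a18 had -0.59 (-0.96 to -0.20) in group 2. Mest and Impact passed 1.5-fold in group 3, with 0.71 (0.44 to 0.99) and -0.79 (-1.21 to -0.38), and Mest in group 4, with 0.81 (0.50 to 1.12). In group 4 Plagl1 had 0.76 (0.17 to 1.36) and Sgce 0.59, with an interval from 0.0027 to 1.19. The part of somatic carry-over in the Meg3, Mest, Plagl1 and Sgce ratios of these groups was not tested. Phlda2 had a ratio of -0.61 (-0.77 to -0.45) in group 1, where its UMIs lie. Over all germ-like cells its ratio was -0.18, but it was 0.74 with common limits on cells and 0.27 without cells holding markers of another class, so its direction was not stable.

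**Figure D4:**
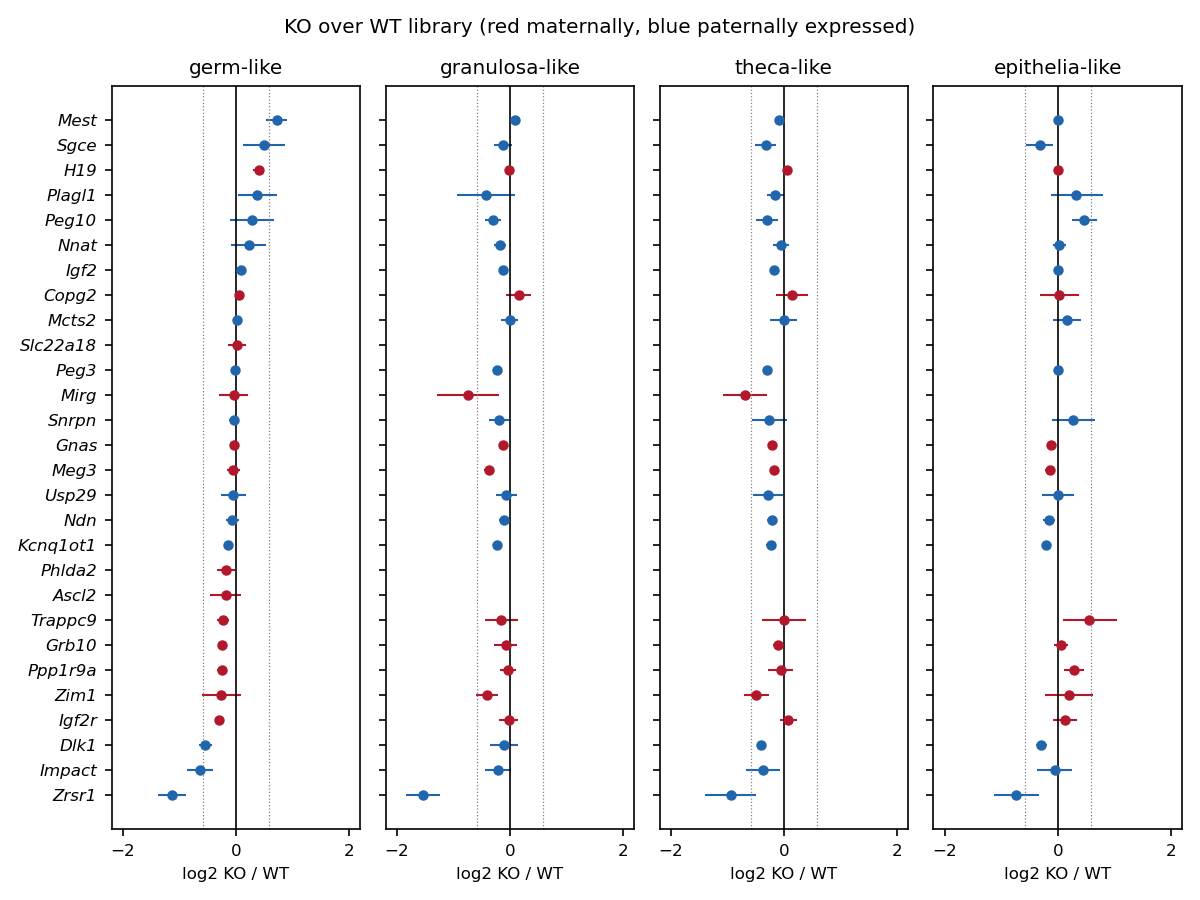
Log2 ratio of KO over WT CPM for the members with at least 100 UMIs over both libraries in germ-like cells, by class (bars 95% counting intervals, dotted lines 1.5-fold, no point where a class held under 100 UMIs). Zrsr1 lies left of 0 in all 4 panels, from -1.54 in granulosa-like to -0.73 in epithelia-like cells, and Mest lies past 1.5-fold in germ-like cells only.

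Imprinted genes outside the 33 were read from a second list of 36, of which 34 were found. In WT, 28 had enough UMIs, 11 were at least 2-fold lower in germ-like cells and 5 were higher, against 31.1% and 26.5% of all genes. In KO 12 of 29 were lower and 3 were higher, against 32.9% and 22.8%. In both libraries the lower genes were thus above, and the higher genes below, the general share. These differences were not tested. The 4 largest WT ratios were those of Dcn, a matrix proteoglycan (-7.92), Gatm, an enzyme of creatine synthesis (-5.80), Osbpl5, a lipid transfer protein (-4.31), and Gab1, a signalling adaptor (-3.94). In KO these were -6.94, -5.39, -4.48 and -3.67.

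In germ-like cells 4 of the 26 tested genes of that list differed by at least 1.5-fold between the libraries, against 5.46% of all genes, named here after their values were seen. Sfmbt2, a Polycomb group protein, was at 4.66 CPM in WT and 0.961 CPM in KO, a log2 ratio of -2.28 (-2.58 to -1.99), and Klf14 had -0.63. Dcn (1.00) and Atp10a (0.69) were higher in KO. Dcn, however, had the largest gap named above between germ-like and somatic-like cells. The median gonadal somatic marker in germ-like cells was also higher in KO, at 1.61% of its somatic level beside 1.05% in WT. The part of this carry-over in the Dcn ratio was not tested.

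Of 8 genes that read or keep imprints, 2 were at least 2-fold lower in germ-like cells in both libraries, no more than the 31.1% of all genes in WT and 32.9% in KO. Zfp57, the zinc finger protein that binds methylated control regions, had 1.43 CPM in germ-like and 20.6 CPM in somatic-like cells of WT, and 1.09 and 19.6 CPM in KO. Arid4a, a chromatin protein, had log2 ratios of -1.37 and -1.33. Dnmt1, the maintenance methyltransferase, passed from 208 CPM in germ group 1 to 46.4 CPM in group 4 of WT and from 204 to 48.5 CPM in KO. None of the 8 differed by 1.5-fold between the libraries in any of the 4 classes.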

How the data were processed

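Single-cell RNA-seq libraries of E15.5 ovary, 1 per genotype, were made with the 10x 3′ v3 kit. The deposited UMI counts per gene and cell had been made by the authors with Cell Ranger from alignments to mm10, per the labels, and the counting annotation, its release and the strand setting are not given in the sources used here. No column was left without a sample. The authors analysed the counts in Seurat 3.2.3, and the study's limits on cells were applied here (WT 1500 to 6500 genes and 5500 to 40000 UMIs, KO 1200 to 5500 genes and 3000 to 30000 UMIs, both under 10% mitochondrial). This kept 9045 of 11430 WT and 15502 of 17829 KO barcodes. The libraries shared 75 barcodes, 27 of them among the kept cells.

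Cells of both libraries were clustered together with scanpy 1.11.5 (2000 variable genes without the members, 30 components, 20 neighbours, Leiden resolution 0.5), and clusters were named from marker lists. No doublet caller was used for the values reported, and Scrublet was run as an alternative. The theca-like class held perivascular cells too. Germ-like clusters formed 4 groups ordered by summed premeiotic and meiotic entry markers. Other classes were left out except the endothelia-like one.

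UMIs were summed per class and library with numpy 2.4.6. CPM carry exact Poisson intervals and log2 ratios exact conditional intervals (scipy 1.17.1, 95%), which cover counting error only. With 1 library per genotype no test was made, no p-value is given, and genotype cannot be told apart from embryo pool, sort or capture. A gene was tested against the fold limit, 2-fold between classes or groups and 1.5-fold between libraries, where it had at least 100 UMIs over both sides. The calculation was tested on simulated data.

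The members and gene lists were chosen with earlier results of these data known. Values in both libraries are given for members past the fold limit in both, for KO over WT for every member past 1.5-fold with an interval that leaves out 0, and for the others of each domain by range. From the list of other imprinted genes, the 4 of largest WT ratio were named. Levels are not compared per length between genes, since 3′ ends were counted. Positions and sequences are of GRCm38 (GENCODE M21 annotation and RefSeq's GRCm38.p6 tables), of which mm10 is another name. The parental class is the usual one of the gene and need not hold in every tissue. The alternatives were common limits on cells, Scrublet, removal of cells with markers of another class, thinning to 3000 UMIs, means over cells, other scaling totals, other UMI and fold limits, Leiden resolution 0.8 and an unweighted somatic mean.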

Additional observations from a re-analysis of the deposited data

Results flagged for a closer look

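In 5 members the KO over WT log2 ratio of germ-like cells and that of a somatic-like class lay on opposite sides of 0, each with a counting interval that left out 0. None of these differences between classes was tested, since each class has 1 library per genotype. The share of all genes that meet this rule is not given here, so no excess is read from the 5. Ppp1r9a was at -0.25 in germ-like and 0.28 in epithelia-like cells. Trappc9 was at -0.23 in germ-like and 0.56 in epithelia-like cells. Mest was at 0.72 in germ-like and -0.081 in theca-like cells, but over the alternatives the theca-like ratio ran from -0.23 to 0.13, so that under some it lay on the same side as the germ-like one. Sgce was at 0.49 in germ-like cells, -0.32 in theca-like cells and -0.32 in epithelia-like cells. Plagl1 was at 0.38 in germ-like and -0.15 in theca-like cells. Beside Mest, Sgce and Plagl1, whose germ-like levels were higher in KO, the median gonadal somatic marker in germ-like cells stood at 1.05% of its somatic level in WT and 1.61% in KO. Without germ-like cells that held a somatic marker UMI, the germ-like ratios were 0.68 for Mest, 0.29 for Sgce and 0.30 for Plagl1.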

How the results depend on the processing

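Over 11 alternatives, 104 of the recomputed counts of members stayed within 1.5 times of the value reported and 20 did not. The counts lower in germ-like cells stayed within 1.5 times under every alternative in both libraries. Common limits on cells gave 5 members between the libraries in theca-like cells. Removal of cells with markers of another class gave 1 member in granulosa-like and 3 in epithelia-like cells. Thinning to 3000 UMIs, by which fewer members reach 100 UMIs, gave 2 members higher in germ-like cells in WT and 2 in KO, 6 between germ groups 1 and 4 in WT, and 1, 0 and 0 between the libraries in granulosa-like, theca-like and then epithelia-like cells. A minimum of 20 UMIs gave 5 members between the libraries in germ-like and 3 in epithelia-like cells, and no minimum gave 5 each in germ-like, theca-like and epithelia-like cells. With fold limits of 1.5 (2 between libraries), 15 members differed between germ groups and 12 between granulosa-like and theca-like cells in KO, and between the libraries 1 in germ-like, 1 in granulosa-like and 0 in the other classes. Where these limits raise or lower a count, fewer or more members can pass by construction, and other causes were not tested.

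Of the ratios of single members, 940 kept within their counting interval, 273 moved beyond it and 1 was past the fold limit and turned its direction. This was Zrsr1 in epithelia-like cells, KO over WT, at 0.32 after thinning, which leaves only part of its 102 WT and 112 KO UMIs. Counting ratios within the fold limit too, 46 of 165 crossed 0 under at least 1 alternative. Among these, KO over WT, were Phlda2 in germ-like cells (-0.18, at most 0.74), H19 in theca-like cells (0.056, at least -0.18), and Zim1 (-0.41, at most 0.21) and Airn (-0.34, at most 0.51) in granulosa-like cells. Thinned, the Zrsr1 ratio was -0.55 in theca-like cells, under 1.5-fold, -0.99 in germ-like and -1.61 in granulosa-like cells. No paired analysis was possible because each genotype is 1 library, and for the same reason no library could be left out. Nap1l5 in both libraries and Magel2 in WT held under 100 UMIs, and Snurf held 0.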

Other observations

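Among 21 further imprinted genes outside the 33 with enough UMIs in each library, 6 differed by at least 2-fold between groups 1 and 4 in WT, with 1 lower and 5 higher in group 4, and 6 in KO, with 3 lower and 3 higher. This was no more than the 31.6% of all genes in WT and 29.7% in KO. Zdbf2, a zinc finger gene, stood at 29.7 CPM in group 1 and 149 CPM in group 4 of WT, and at 30.3 and 152 CPM in KO, a log2 ratio of 2.32 in each. Between granulosa-like and theca-like cells 5 of 19 differed by at least 2-fold in WT and 10 of 23 in KO, against 20.5% and 20.3% of all genes. Zdbf2 was named after its values were seen.

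Among the genes that read or keep imprints, Dnmt1 and Uhrf1, the partners that copy methylation after replication, were lower in granulosa-like than in theca-like cells, with log2 ratios of -1.52 and -1.73 in WT and -1.26 and -1.78 in KO.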
